A study of Mus musculus with 42 samples.

Results

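The genes described here encode 8 enzymes that build heparan sulfate, namely Ext1, Ext2, Extl3, Ndst1, Ndst2, Glce, Hs2st1 and Hs6st1. They were found by gene symbol in the count tables of a Tnrc6a RNA immunoprecipitation study. All 8 had a row in both tables, 8 of 18825 rows in experiment 1 and 8 of 19866 in experiment 2, and all 8 passed the filter on low counts. Ndst1 was chosen by its measured IP and input values in these data, in which its association with Tnrc6a was lower in cells labelled Trim71KO. The other 7 were added as enzymes of the same pathway. Every comparison of Ndst1 is therefore given as a description, with no test. It is left out of the counts and medians of the enzymes, except where it is said to be included.

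Heparan sulfate is a sulfated sugar chain carried by core proteins of the cell surface and matrix. Extl3 adds the sugar that starts the chain, and Ext1 and Ext2 form the complex that lengthens it in the Golgi. Ndst enzymes replace acetyl by sulfate groups, Glce epimerises glucuronic to iduronic acid, and Hs2st1 and Hs6st1 add further sulfates. In embryonic stem cells the sulfated chains are known as co-receptors for fibroblast growth factors and other ligands that act on the exit from pluripotency. Tnrc6a, a GW182 protein, is brought to mRNAs by Argonaute proteins loaded with microRNAs and recruits deadenylases. Trim71 binds mRNAs through its NHL domain and is a translational repressor of early development. Ago2 is the Argonaute that can also cleave its targets.

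The study asked which RNAs associate with Tnrc6a, and which of these associations need Trim71 or Ago2. All cells were 129S6/SvEvTac mouse embryonic stem cells with a yGlob GFP_5xT71BS reporter and stably transfected FLAG-Cas9::T2A::Blasticidin. Untagged cells carried nothing further. Tagged cells also had HA-AVI-Tnrc6a, Trim71KO cells had the tag and were Trim71-/-, and Ago2KO cells had the tag and were Ago2-/-. The labels do not say whether a knockout was 1 clone. RNA bound to anti-HA beads (IP) and RNA of the lysate (input) were sequenced in 42 libraries, with 3 in each of 14 groups. Experiment 1 had untagged, tagged and Trim71KO cells, and experiment 2 added Ago2KO cells. Replicates are named as triplicates, so p-values measure the spread between these samples, which may be partly technical.

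The libraries of experiment 1 held 12587257 to 23657840 counts each, and those of experiment 2 held 16296447 to 21026552. Tnrc6a mRNA itself was 294-fold (experiment 1) and 206-fold (experiment 2) higher in IP than input of tagged cells, against 0.907-fold and 0.863-fold in untagged cells. Ago2 input RNA was lower in Ago2KO than in tagged cells (log2 change -1.12, SE 0.10). For Trim71, input RNA of Trim71KO-labelled libraries lay above that of tagged ones (log2 change 0.23, SE 0.09, and 0.42, SE 0.08), so RNA level does not check that label. The 8 embryonic stem cell markers examined were all present, with a summed input level of 6305 to 8776 CPM (counts scaled to the TMM-adjusted library size). In experiment 1 the sums were 6531 to 7476 CPM in tagged and 7607 to 7793 CPM in Trim71KO inputs. In experiment 2 they were 7702 to 7902 CPM in tagged, 8548 to 8776 CPM in Trim71KO and 8336 to 8470 CPM in Ago2KO inputs. Primitive endoderm markers (5 of 5 in the tables) summed to 40.0 to 48.2 CPM in tagged and 9.47 to 10.9 CPM in Trim71KO inputs of experiment 1. In experiment 2 they summed to 15.4 to 16.6 CPM in tagged, 6.10 to 8.02 CPM in Trim71KO and 8.69 to 9.30 CPM in Ago2KO inputs. Fibroblast feeder markers (2 of 5 in the tables) summed to 58.0 to 61.8 CPM in Trim71KO and 22.6 to 24.5 CPM in tagged inputs of experiment 1. In experiment 2 their sums were 49.5 to 51.9 against 34.2 to 35.8 CPM. By edgeR at an adjusted p under 0.05, both were higher in experiment 1, where 16.5% of all genes were. Only 1 of the 2 was called higher in experiment 2, where 13.5% of all genes were. The median log2 change of the 2 was 0.14 there, so the sum rested on 1 gene. The only trophoblast marker in the tables (1 of 4) held 75.7 to 85.2 CPM in tagged, 57.5 to 62.4 CPM in Trim71KO and 113.6 to 129.8 CPM in Ago2KO inputs of experiment 2. In experiment 1 it went the other way, with 39.3 to 43.4 CPM in tagged and 44.8 to 50.4 CPM in Trim71KO inputs. Summed neural markers overlapped between tagged and Trim71KO inputs in both experiments. They held 100 to 108 CPM in Ago2KO against 79.8 to 86.8 CPM in tagged inputs. Summed mesoderm markers held 6.34 to 8.30 CPM in Trim71KO and 4.78 to 5.29 CPM in tagged inputs of experiment 1, and overlapped in experiment 2. The part of these markers in the results was not tested. Fewer cells of a type and less RNA per cell cannot be told apart in such bulk samples.

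Input levels per kilobase of gene model (RPKM on the TMM scale) put Hs6st1 first and the Ndst genes last. In untagged inputs of experiment 2, Hs6st1 stood at 20.5 ± 0.24 RPKM (SD, n = 3) and Extl3 at 8.58 ± 0.43. Ext2 at 5.51 ± 0.28, Hs2st1 at 5.37 ± 0.23 and Glce at 5.28 ± 0.25 lay within each other's spread. Ext1 followed at 4.73 ± 0.15, then Ndst1 at 3.41 ± 0.12 and Ndst2 at 2.99 ± 0.30. The ranges of the last 2 did not overlap, 3.32 to 3.54 against 2.68 to 3.28. In experiment 1 the same cells again had Hs6st1 (21.4 ± 0.93) first and Ndst2 (2.63 ± 0.24) last. There the range of Ext1 (4.87 ± 0.21) overlapped that of Glce (4.75 ± 0.16), and that of Glce overlapped that of Hs2st1 (4.54 ± 0.11), while Ext1 and Hs2st1 did not overlap.

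Tag-specific association was tested as an interaction, the log2 IP to input ratio of tagged cells less that of untagged cells. By edgeR's quasi-likelihood test at a Benjamini-Hochberg adjusted p under 0.05, 6 of the 7 enzymes other than Ndst1 were higher and Ext2 was lower in experiment 1. Of all genes tested there, 56.9% were called, 28.1% higher and 28.8% lower. In experiment 2, 4 of 7 were higher and 0 lower, against 18.9% and 8.77% of all genes, or 27.7% in all. The median change of the 7 was 1.39 and 0.46 in the respective experiments, beside -0.10 and -0.03 over all genes. Hs6st1, Glce, Hs2st1 and Ext1 were higher in both experiments.

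**Figure D1:**
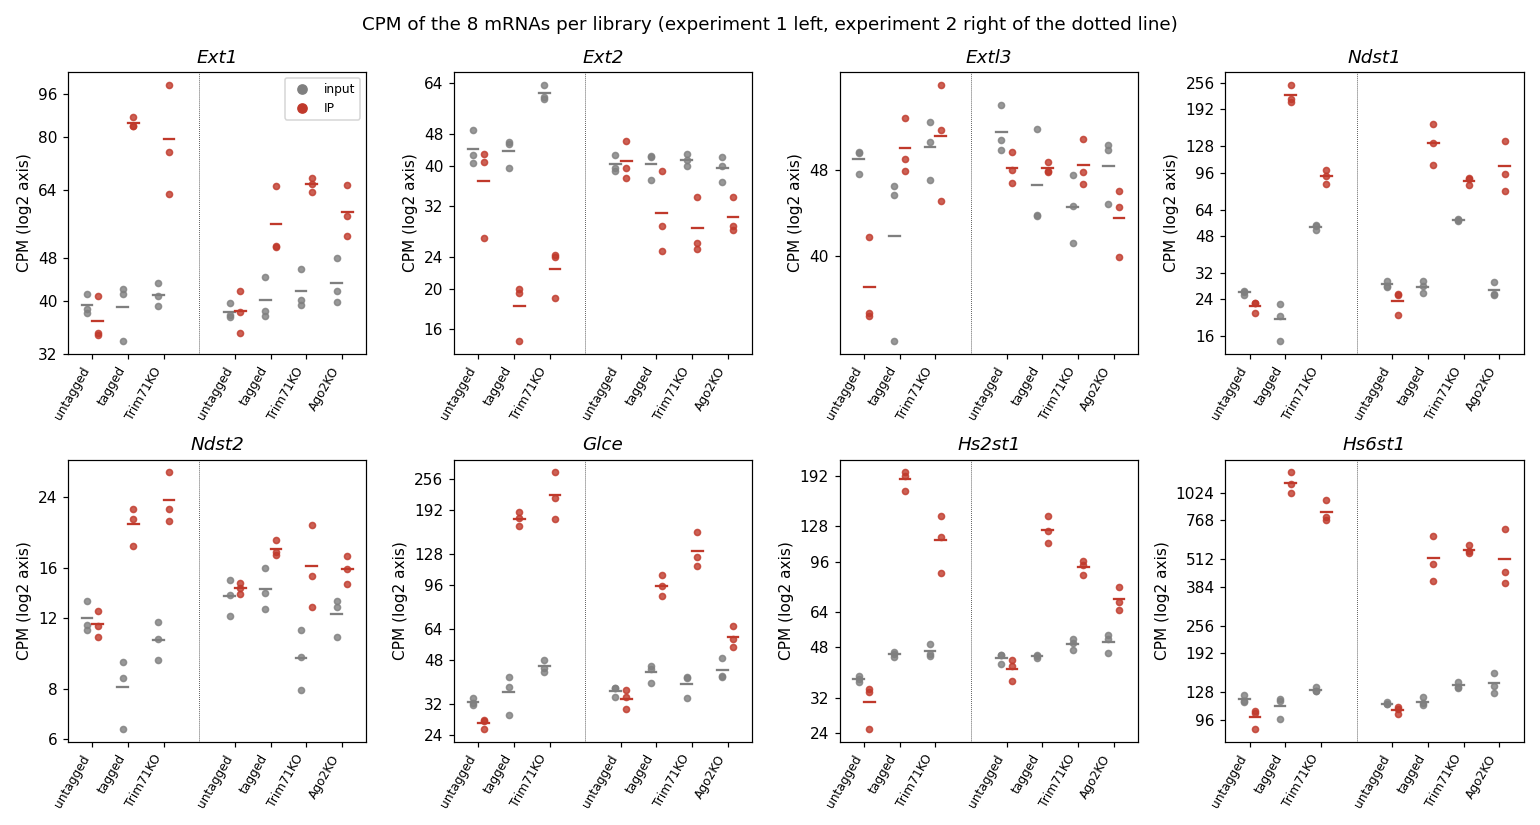
Each panel plots 1 enzyme mRNA in CPM on a log2 axis. Points are libraries, short bars are group means of 3 libraries, grey is input and red is IP. In tagged cells of experiment 1 all 3 IP points lie above the 3 input points for every enzyme but Ext2, where they lie below, as in 19.5 against 39.6 CPM in replicate 2.

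Hs6st1, on chromosome 1 (chr1:36068400-36106446, RefSeq, GRCm38.p6), adds sulfate to glucosamine. It was at 115, 116 and 125 CPM in untagged and 119, 96.5 and 117 CPM in tagged inputs of experiment 1. IP levels were 87.3, 103 and 105 CPM in untagged cells and 1121, 1025 and 1264 CPM in tagged cells. The IP groups were far apart while the inputs overlapped. The tag-specific log2 change was 3.62 (SE 0.16, adjusted p = 2.09e-15). In experiment 2 the tagged IP libraries held 653, 487 and 406 CPM against 108, 101 and 110 CPM in untagged IP, a log2 change of 2.25 (SE 0.21, adjusted p = 1.26e-09).

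Ndst1, an N-deacetylase and N-sulfotransferase encoded on chromosome 18, stood at 23.2, 20.7 and 23.1 CPM in untagged IP of experiment 1. Its tagged IP libraries held 215, 208 and 252 CPM. Inputs were at 26.4, 25.2 and 26.0 CPM in untagged and 22.8, 15.2 and 19.9 CPM in tagged cells. Input was thus lower, and IP higher, in every tagged library than in every untagged one. The log2 change was 3.76 (SE 0.16). In experiment 2 untagged IP held 25.4, 25.2 and 20.3 CPM and tagged IP 163, 133 and 104 CPM, with inputs of 27.5 to 29.3 and 25.6 to 29.3 CPM. There the log2 change was 2.53 (SE 0.21). These libraries took part in the choice of the gene, so the values describe it.

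Glce, the epimerase (chr9:62057244-62122609), rose from 25.4, 27.6 and 27.2 CPM in untagged IP to 180, 166 and 188 CPM in tagged IP of experiment 1. The log2 change was 2.60 (SE 0.18, adjusted p = 1.79e-11). Its change was 1.26 (SE 0.16, adjusted p = 2.62e-07) in experiment 2, where untagged IP held 36.3, 34.0 and 30.5 CPM and tagged IP 105, 86.5 and 95.2 CPM. Hs2st1, which sulfates iduronic acid (chr3:144429701-144570216), rose from 24.9, 34.2 and 33.5 to 198, 170 and 193 CPM in IP of experiment 1. The change was 2.31 (SE 0.18, adjusted p = 1.2e-10). In experiment 2 it went from 41.1, 43.3 and 36.6 to 138, 123 and 112 CPM, a change of 1.60 (SE 0.12, adjusted p = 1.63e-11). Neither gene's tagged and untagged IP libraries overlapped in either experiment.

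The chain-lengthening enzymes moved less, and apart from each other. Ext1 (chr15:53068261-53346183) was at 34.6, 40.9 and 34.9 CPM in untagged and 87.0, 83.8 and 83.8 CPM in tagged IP of experiment 1, a log2 change of 1.22 (SE 0.17, adjusted p = 2.76e-06). Its change was 0.46 (SE 0.14, adjusted p = 0.0156) in experiment 2, and 0.31 (adjusted p = 0.094) without tagged IP replicate 1. It was also not called without untagged IP replicate 2 (adjusted p = 0.058). Ext2 (chr2:93695631-93822568), its partner, went the other way. Its IP levels in experiment 1 were 26.6, 40.9 and 42.7 CPM in untagged and 14.9, 19.5 and 20.1 CPM in tagged cells, a change of -1.0 (SE 0.20, adjusted p = 0.000179). In experiment 2 they were 46.1, 39.7 and 37.4 against 24.7, 28.6 and 38.8 CPM, which overlap, and the change of -0.42 (SE 0.17) had an adjusted p of 0.0708. That value passed the threshold under 5 of 7 other settings, and without untagged IP replicate 3 (0.039) or tagged IP replicate 3 (0.0023).

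Extl3, the chain initiator (chr14:65052059-65149899), and Ndst2, the second N-sulfotransferase (chr14:20723730-20734570), were higher in experiment 1 only by the test of each experiment. Extl3 held 35.2, 35.5 and 41.6 CPM in untagged and 49.1, 53.6 and 47.9 CPM in tagged IP, a log2 change of 0.65 (SE 0.16, adjusted p = 0.0013). Ndst2 held 10.8, 12.5 and 11.5 against 21.2, 18.1 and 22.5 CPM, a change of 1.39 (SE 0.20, adjusted p = 3.45e-06). In experiment 2 the changes were 0.16 (SE 0.11, adjusted p = 0.293) and 0.26 (SE 0.19, adjusted p = 0.345).

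Ndst1's IP to input ratio in tagged cells was 11.7-fold in experiment 1 and 4.83-fold in experiment 2, above those of 98.04% and 97.72% of tested genes. Hs6st1 was close to it at 10.2-fold and 4.46-fold. In Trim71KO cells Ndst1's ratio was 1.74-fold and 1.54-fold, while that of Hs6st1 was 6.38-fold and 4.11-fold. In Ago2KO cells the ratios were 3.89-fold for Ndst1 and 3.68-fold for Hs6st1.

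**Figure D2:**
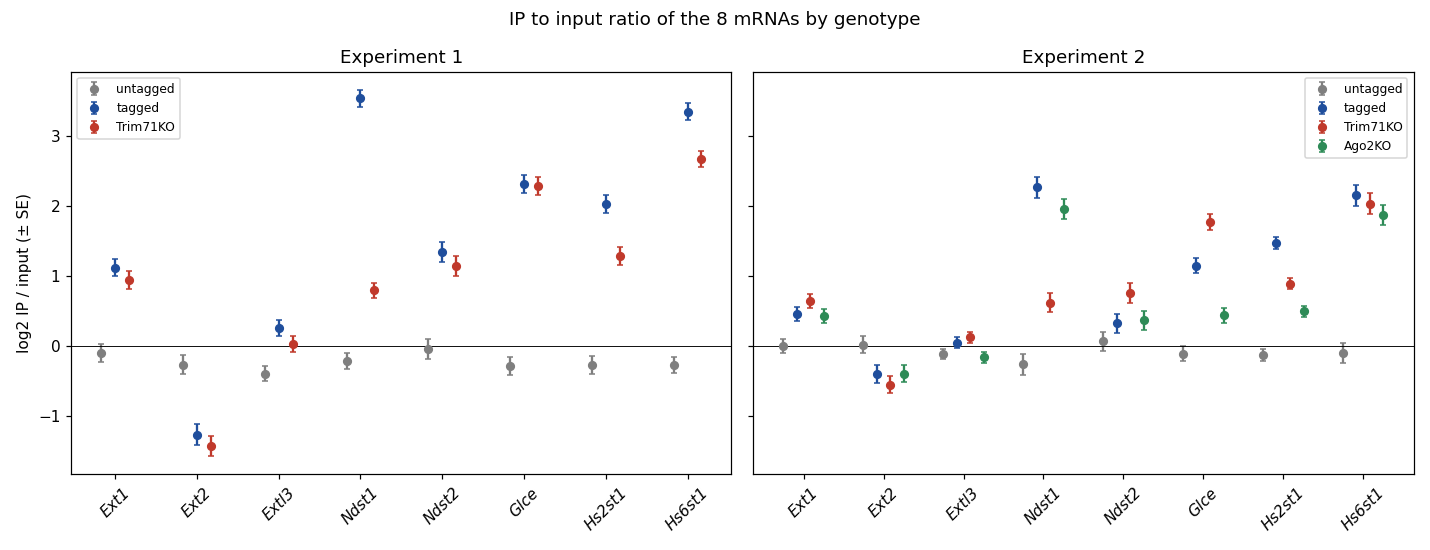
The log2 ratio of IP to input RNA is plotted for each enzyme, with a point for each genotype and its SE from the edgeR fit (3 IP and 3 input libraries each). Ndst1 lies beside Hs6st1 in tagged cells, at 3.54 and 3.36 in experiment 1, and well below it in Trim71KO cells, at 0.80 and 2.67.

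In Trim71KO cells Ndst1 was higher in input and lower in IP than in tagged cells, in both experiments. Trim71KO inputs of experiment 1 held 54.0, 53.3 and 51.2 CPM and IP libraries 99.2, 92.4 and 84.7 CPM. In experiment 2 Trim71KO inputs held 56.9, 56.3 and 57.6 CPM and IP libraries 83.8, 89.2 and 90.4 CPM. No Trim71KO library overlapped a tagged library of the same fraction. The log2 change of association was -2.74 (SE 0.16) in experiment 1 and -1.65 (SE 0.20) in experiment 2. Its 2 parts were a higher input (1.45, SE 0.11, and 1.05, SE 0.15) and a lower IP. These values chose the gene and carry no test. In experiment 1 Tnrc6a's own mRNA stood at 19736, 19643 and 29473 CPM in tagged IP and 13373, 17593 and 21758 CPM in Trim71KO IP, and its part in the changes was not tested.

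Among the other 7 enzymes, the association of Hs2st1 and Hs6st1 was lower in Trim71KO than in tagged cells in experiment 1. Of all genes 3.74% were called there, 3.47% lower and 0.272% higher. Leaving out 1 library moved this share to between 1.8% (339 genes, without Trim71KO input replicate 3) and 7.63% (1435 genes, without Trim71KO IP replicate 1), in place of 703 genes. Without Trim71KO input replicate 1 or 2, Trim71KO IP replicate 2, or replicate 3 of tagged input or tagged IP, 345 to 467 genes were called. Hs2st1 held 139, 117 and 87.6 CPM in Trim71KO IP, all below the tagged IP libraries, with inputs of 45.7, 44.9 and 49.4 CPM. Its change was -0.75 (SE 0.18, adjusted p = 0.0144). Hs6st1 held 949, 796 and 768 CPM in Trim71KO IP and 134, 130 and 130 CPM in input, with a change of -0.68 (SE 0.15, adjusted p = 0.00795). Leaving out single libraries ended the Hs2st1 call in 8 of 12 cases and the Hs6st1 call in 6 of 12. In 6 of these cases, namely without tagged input replicate 2, any Trim71KO input or Trim71KO IP replicate 2 or 3, neither was called (adjusted p from 0.052 to 0.14). Tagged input replicates 1 and 3 ended the Hs2st1 call alone. The changes themselves ran from -0.84 to -0.49 for Hs2st1 and from -0.75 to -0.53 for Hs6st1 over these cases. The other 5 enzymes changed by -0.23 to -0.03 (adjusted p from 0.544 to 0.969, SE 0.16 to 0.20).

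In experiment 2, where 1.49% of all genes were called (0.738% lower and 0.753% higher), Hs2st1 was again lower and Glce was higher. Hs2st1 held 86.0, 96.9 and 93.2 CPM in Trim71KO IP, below the tagged IP libraries, and 49.7, 47.2 and 51.6 CPM in input. The change was -0.58 (SE 0.11, adjusted p = 0.0082) and stayed called under every setting and with every library left out in turn. Glce held 114, 124 and 157 CPM in Trim71KO IP, above tagged IP, and 41.1, 33.9 and 40.7 CPM in input, against 45.6, 38.9 and 44.3 CPM in tagged input. Its change was 0.62 (SE 0.15, adjusted p = 0.0342), and 8 of 12 single libraries ended the call when left out. Those were tagged input replicates 1 and 3, Trim71KO input replicates 1 and 2, and replicates 2 and 3 of tagged and of Trim71KO IP, with adjusted p up to 0.17. The call was also lost without the filter on low counts (0.052) and with only the groups compared (0.089). In experiment 1 the change of Glce was -0.03 (SE 0.18). Hs6st1 changed by -0.12 (SE 0.20, adjusted p = 0.849) and Ndst2 by 0.43 (SE 0.19, adjusted p = 0.276) in experiment 2. Leaving out 1 library moved the genes called from 295 to as few as 98 (0.494%, Trim71KO IP replicate 2 left out) and as many as 562 (2.83%, tagged IP replicate 1 left out). With tagged input replicate 1 or 3, Trim71KO input replicate 1 or 2, tagged IP replicate 2 or Trim71KO IP replicate 3 left out, 115 to 167 were called. The number of all genes called moved from 295 to 470 with the replicate number as a block within input and within IP, and no member's call changed in that comparison.

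Association in Ago2KO cells was lower for Hs2st1 and Glce. Of all genes 4.16% were called in that comparison, 3.77% lower and 0.384% higher. Hs2st1 held 78.2, 69.0 and 65.1 CPM in Ago2KO IP, below all tagged (112 to 138 CPM) and all Trim71KO (86.0 to 96.9 CPM) IP libraries. Ago2KO inputs were 53.1, 51.2 and 46.0 CPM, and the change from tagged cells was -0.98 (SE 0.11, adjusted p = 2.8e-06). Glce held 65.8, 58.3 and 54.3 CPM in Ago2KO IP, again below every tagged and Trim71KO IP library. With inputs of 48.8, 41.3 and 41.2 CPM, its change was -0.71 (SE 0.15, adjusted p = 0.00465). Tagged cells are the common reference of the Trim71KO and Ago2KO comparisons, so these are not independent.

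Hs6st1 changed by -0.28 (SE 0.20, adjusted p = 0.638) in Ago2KO cells. Ndst1 changed by -0.31 (SE 0.20), given without a test because the tagged libraries also took part in its choice. Ndst1 held 136, 94.8 and 78.3 CPM in Ago2KO IP and 28.9, 25.2 and 25.5 CPM in input. Hs6st1 held 699, 446 and 400 CPM in Ago2KO IP and 156, 137 and 127 CPM in input. Ago2KO IP replicate 1 was the highest for both, and for Tnrc6a mRNA, which stood at 31194 CPM there and at 17218 and 14785 CPM in the other 2 libraries. Without that library the log2 change was -0.56 for both, and Hs6st1 was called lower (adjusted p = 0.026). Ext1, Ext2, Extl3 and Ndst2 changed by -0.21 to 0.04 (adjusted p from 0.423 to 0.999, SE 0.11 to 0.19).

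**Figure D3:**
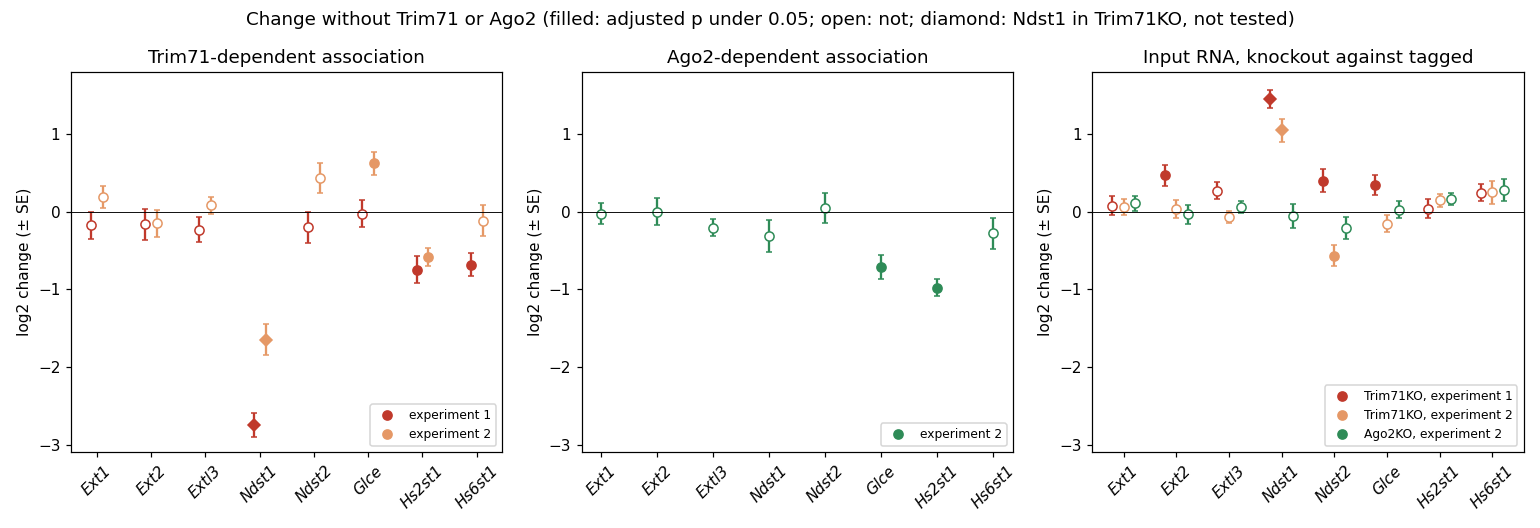
Log2 changes against tagged cells with SE bars from the edgeR fits are plotted for Trim71-dependent association, Ago2-dependent association and input RNA. Filled circles passed an adjusted p of 0.05, open circles did not, and diamonds mark Ndst1 in Trim71KO cells, which was not tested. Ndst1 in Ago2KO cells, drawn with open circles, is a description too. Glce lies at 0.62 in Trim71KO and at -0.71 in Ago2KO cells of experiment 2, and Hs2st1 lies below 0 in all 3 association comparisons.

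Set directly against each other in experiment 2, Trim71KO and Ago2KO cells differed for 2 of the 7 enzymes tested, both higher in Trim71KO, beside 11.8% of all genes (8.94% higher and 2.86% lower in Trim71KO). For Ndst1, not tested here, the difference was -1.34 (SE 0.20). Its inputs were apart, at 56.3 to 57.6 CPM in Trim71KO and 25.2 to 28.9 CPM in Ago2KO cells. Its IP libraries overlapped, at 83.8 to 90.4 CPM in Trim71KO and 78.3 to 136 CPM in Ago2KO cells. Glce's association was higher in Trim71KO than in Ago2KO cells, by 1.33 (SE 0.15, adjusted p = 7.36e-07). Hs2st1 was also higher in Trim71KO, by 0.40 (SE 0.11, adjusted p = 0.0215), but leaving out any of 8 of 12 libraries raised its adjusted p to between 0.054 and 0.096. These 8 were replicates 1 and 2 of each input and replicates 2 and 3 of each IP. For Hs6st1 the difference was 0.16 (SE 0.20, adjusted p = 0.697). Extl3 differed by 0.29 (SE 0.11, adjusted p = 0.0873).

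Association above that in untagged cells was also tested within each knockout. In Trim71KO cells of experiment 1, 6 of the 7 enzymes other than Ndst1 were higher and Ext2 was lower (-1.16, SE 0.20), against 54.9% of all genes called (25.6% higher and 29.3% lower). In experiment 2, 5 of the 7 were higher and Ext2 was lower (-0.57, SE 0.17), against 38.7% of all genes (23% higher and 15.7% lower). Hs6st1 was the highest of the 7 at 2.94 and 2.13. Ndst1, not tested here, stood at 1.01 (SE 0.16) and 0.88 (SE 0.21). In experiment 2 Ndst2 (0.69, SE 0.20) was not called without Trim71KO IP replicate 3 (adjusted p = 0.056). In Ago2KO cells 4 of the 7 were higher, against 20.9% of all genes called (15.8% higher and 5.11% lower). These were Hs6st1 (1.97), Hs2st1 (0.63), Glce (0.55) and Ext1 (0.43). Ndst1, not tested there either, stood at 2.22 (SE 0.21). Without untagged IP replicate 3 Glce was not called (adjusted p = 0.061), and Ext1 was not called when any of 7 of 12 libraries was left out (adjusted p up to 0.11). Those 7 were input replicates 1 and 3 and IP replicates 2 and 3 of untagged cells, and input replicates 2 and 3 and IP replicate 1 of Ago2KO cells. Library size alone also ended the Ext1 call (0.053). Ext2 (-0.42, SE 0.17, adjusted p = 0.0856) was called lower by DESeq2 (0.034), with library size alone (0.045), with only the groups compared (0.019) and without untagged IP replicate 3 (0.042).

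In input RNA of experiment 1, 3 of the 7 enzymes other than Ndst1 were higher in Trim71KO than in tagged cells, namely Ext2, Ndst2 and Glce. Of all genes 34% were called, 16.5% higher and 17.4% lower. Ext2 held 59.2, 58.5 and 63.3 CPM in Trim71KO input against 45.4, 39.6 and 45.7 CPM in tagged input, a log2 change of 0.47 (SE 0.14, adjusted p = 0.00989). Ndst2 held 9.46, 11.7 and 10.6 against 8.49, 6.37 and 9.34 CPM (0.40, SE 0.15, adjusted p = 0.0399). Glce held 44.6, 42.9 and 48.1 against 40.9, 28.7 and 37.4 CPM (0.34, SE 0.13, adjusted p = 0.0418). Tagged input replicate 2 was the lowest tagged library for all 8 enzymes. Without it the changes were 0.26 (adjusted p = 0.22) for Ndst2 and 0.22 (adjusted p = 0.25) for Glce. The Ndst2 call was also lost without tagged input replicate 1 or Trim71KO input replicate 2 or 3. The Glce call was lost without any other single library but tagged input replicate 1, by DESeq2 (0.053) and with RLE factors (0.052). With only the groups compared the Ndst2 call was lost (0.061). Library size alone also called Extl3 (0.049) and Hs6st1 (0.042).

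In experiment 2 the input call for Ndst2 was in the opposite direction. It held 9.58, 7.96 and 11.2 CPM in Trim71KO input against 13.9, 12.6 and 16.0 CPM in tagged input, a change of -0.57 (SE 0.14, adjusted p = 0.00315), where 27.2% of all genes were called (13.5% higher and 13.7% lower). Ext2 (0.03, SE 0.12) and Glce (-0.16, SE 0.11) were not called there. Between Ago2KO and tagged inputs, edgeR called 0 of the 7 enzymes other than Ndst1, against 6.96% of all genes (4.38% higher and 2.57% lower). Of the 7, 0 had an unadjusted p under 0.05, beside 19.6% of all genes, and DESeq2 called 0. Ndst1, not tested, changed by -0.06 (SE 0.15). The changes ran from -0.21 (Ndst2, SE 0.14) to 0.28 (Hs6st1, SE 0.14). A fit on only the groups compared called Hs6st1 higher in Ago2KO input (adjusted p = 0.0058), where it called 13.3% of all genes, and in Trim71KO input of experiment 2 (0.004). Leaving out 1 library lowered the share of all genes called in Ago2KO input from 6.96% to between 3.9% (without tagged input replicate 2) and 4.64% (without tagged input replicate 1).

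Tag-specific association was larger in experiment 1 than in experiment 2 for 6 of the 7 enzymes other than Ndst1, all but Ext2, in a joint edgeR fit of the 42 libraries chosen after the data were seen. The differences ran from 0.60 (Extl3, SE 0.19, adjusted p = 0.0167) to 1.48 (Hs6st1, SE 0.28, adjusted p = 0.000164), and 28.5% of 18620 genes were called. For Ndst1, not tested, the difference was 1.33 (SE 0.29). For Ndst2 and Extl3, called in experiment 1 alone, they were 1.24 (SE 0.28, adjusted p = 0.00126) and 0.60. For the Trim71-dependent change none of the 7 enzymes other than Ndst1 was called, against 0.0967% of genes. At so low a share this does not show that the experiments gave equal changes. Ndst1, not tested, differed by -1.10 (SE 0.27). The difference was -0.66 for Glce (SE 0.24, adjusted p = 0.205) and -0.57 for Hs6st1 (SE 0.27, adjusted p = 0.33).

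How many of all genes were called each way depended on the scaling, while no enzyme's called change turned direction. With library size alone in place of TMM, 2861 genes were higher and 4971 lower in tag-specific association of experiment 2, in place of 3745 and 1734, and Extl3 stood at -0.05. The median of all genes was then -0.24 in place of -0.03. For the Trim71-dependent change the split was 133 to 408 in place of 51 to 652 in experiment 1 (median 0.07 in place of -0.04), and 370 to 119 in place of 149 to 146 in experiment 2, or 88 to 140 with RLE factors. For the Ago2-dependent change it was 165 to 468 in place of 76 to 746, with a median of 0.11. For association remaining over untagged cells in experiment 2, it was 3654 to 4737 in place of 4547 to 3100 in Trim71KO (median -0.17), and 2564 to 1913 in place of 3133 to 1010 in Ago2KO, or 2891 to 1570 with RLE. For Trim71KO in experiment 1 it was 5432 to 4232 in place of 4810 to 5500, with a median of -0.01 in place of -0.15. For Trim71KO input of experiment 1 it was 3506 to 2613 in place of 3102 to 3275. For input RNA of experiment 2 it was 1845 to 3494 in place of 2671 to 2712 in Trim71KO, and 611 to 585 in place of 867 to 509 in Ago2KO. Under library size alone the called changes of Hs2st1 and Glce in Trim71KO and Ago2KO cells of experiment 2 passed the threshold in the same direction.

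Other genes of the pathway were taken from 6 lists. In the Trim71-dependent comparison 0 of 58 in experiment 1 and 0 of 60 in experiment 2 were called by edgeR and DESeq2, beside 3.74% and 1.49% of all genes by edgeR. At an unadjusted p under 0.05 there were 6 and 11, beside 15% and 15.2% of all genes. In Ago2KO cells 2 of 60 were called, both lower, a share near the 3.77% of all genes called lower. These were Dsel, a dermatan sulfate epimerase (-0.60, SE 0.14, adjusted p = 0.0126), and Hs3st6, a heparan sulfate sulfotransferase (-1.29, SE 0.31, adjusted p = 0.0138). Hs3st6 lay under the level set for naming genes in experiment 2 and was named after its values were seen.

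In tag-specific association, 28 of the 58 were higher and 10 lower in experiment 1, with a median of 0.50, and 16 of 60 were higher and 2 lower in experiment 2, with a median of 0.19. Beside these and the list counts that follow stand the shares of all genes, 28.1% higher and 28.8% lower in experiment 1 and 18.9% higher and 8.77% lower in experiment 2. The other heparan sulfate chain enzymes had 5 of 9 higher and 1 lower in experiment 1. Hs3st6 (4.15, SE 0.44) and Hs3st3b1 (2.74, SE 0.22), both sulfotransferases, were higher, and Sulf2, which removes sulfates outside the cell, was lower (-0.77, SE 0.16). In experiment 2, 3 were higher and 1 lower, among them Hs3st3b1 (0.70, SE 0.19) and Sulf2 (-0.57, SE 0.16). Of 10 genes that supply precursors, 6 were higher and 1 lower, and then 5 and 1. Slc35b2, which carries the sulfate donor into the Golgi, was higher in both (2.01, SE 0.19, and 1.21, SE 0.16), as was the sulfate transporter Slc26a2 (1.79, SE 0.19, and 0.67, SE 0.13). Ugdh, which makes the glucuronic acid donor, was lower in both (-0.84, SE 0.15, and -0.26, SE 0.09).

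Of the core proteins, 3 of 11 were higher and 4 lower in experiment 1, and 2 of 12 higher in experiment 2. The syndecans Sdc1 (2.10, SE 0.20, and 0.67, SE 0.18) and Sdc3 (1.94, SE 0.27, and 0.80, SE 0.21) were higher in both, and the matrix protein Col18a1 was lower in experiment 1 (-1.0, SE 0.19). The linkage region, which joins chain to protein, had 2 of 7 and 1 of 7 higher, with Xylt2, which adds its first sugar, in both (1.22, SE 0.20, and 0.38, SE 0.12). In chondroitin and dermatan sulfate synthesis 10 of 13 were higher and 1 lower, and then 4 of 14 were higher. Dsel was the highest of them (3.0, SE 0.28, and 1.75, SE 0.15). The lysosomal enzymes that degrade heparan sulfate had 2 of 8 higher and 3 lower, and then 1 of 8 higher.

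**Figure D4:**
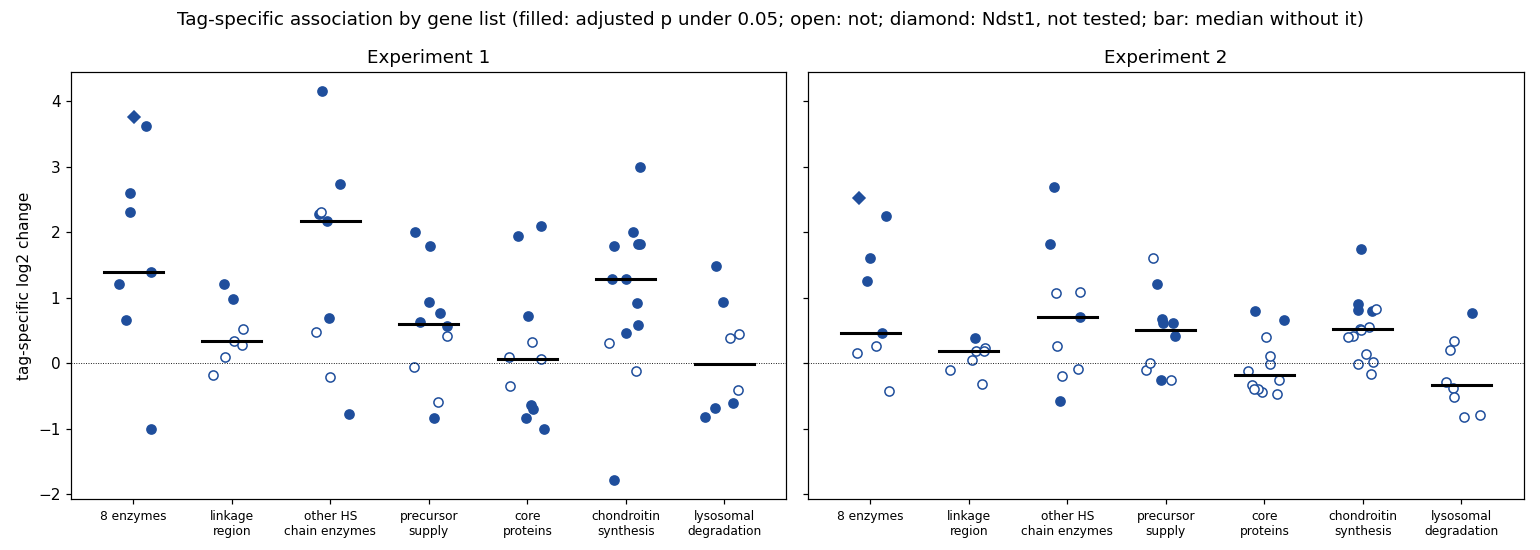
The tag-specific log2 change of each gene is plotted by list, with filled points for an adjusted p under 0.05, a diamond for Ndst1, which was not tested, and a bar at the median of the tested genes. The 7 enzymes tested have medians of 1.39 and 0.46, and the lysosomal enzymes lie at -0.01 and -0.33.

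The mRNAs whose CPM followed Ndst1 most closely over the 42 libraries, each experiment centred on its own mean, were Osbp (Pearson r = 0.976), Fam168a (0.975), Nt5dc3 (0.973), Rapgef6 (0.972) and Dtl (0.969), among 12625 genes. Within the pathway Hs6st1 (0.925, rank 135) and Hs2st1 (0.913, rank 232) followed it best. Ext1 had r = 0.872, Glce 0.849, Ndst2 0.66 and Extl3 0.308, and Ext2 ran against it at -0.697. The genes share the same libraries and the IP to input contrast, so these values describe the libraries and carry no test.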

How the data were processed

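Stranded total RNA libraries of 42 samples were assigned to genotype, fraction and experiment from their titles and descriptions. The submitters' processing notes name bcl2fastq 2.20, STAR 2.7.3a and the builds GRCm38 and mm10, with no role stated; the counting tool, and how it treated strand and overlapping genes, is not given in the sources used here. The authors deposited 1 table of raw gene counts per experiment, with a gene length column (a unit of its own) and RPKM values, which were not used. CPM and RPKM printed here were computed from the counts with TMM library sizes. Counts were tested with edgeR 4.0.16 (R 4.3.3; TMM, filterByExpr, quasi-likelihood F test, a mean per group, all groups of an experiment in 1 fit, Benjamini-Hochberg over 18772 and 19778 genes). Each SE was obtained by dividing a log2 change by its root F statistic. Alternatives were RLE, library size alone, no filter, DESeq2 1.42.0, only the groups compared, replicate blocks and leaving out each library. Intervals of counting were not used, since reads carry no stated molecular identifiers.

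All 8 members, Tnrc6a, Trim71 and Ago2 are named, and of each list up to 4 called genes per comparison with the largest change and a mean log2 CPM of at least 2. Members and lists were chosen with earlier results of these data known. Replicates were compared in 42 pairs and each differed beyond sampling noise (chi-square per gene 2.87 to 64.1 over genes of at least 50 counts). The main tests used no replicate block. Replicate numbers were judged to pair 2 groups where the deviations of all 3 same-numbered libraries correlated above 0.1. Only tagged and Trim71KO groups of experiment 2 met this, at 0.198 to 0.291 (input) and 0.181 to 0.324 (IP). Tagged and Ago2KO IP libraries correlated at 0.572, 0.0676 and 0.413 and did not. The pairing comes from these correlations over genes with a mean log2 CPM of at least 2, not from the labels.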

Additional observations from a re-analysis of the deposited data

Results flagged for a closer look

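Tag-specific association differed between the experiments in the joint fit for 6 of the 7 enzymes other than Ndst1, with larger values in experiment 1. Of 18620 genes, 28.5% were called by edgeR in this comparison. The differences (log2) were 1.24 for Ndst2, 0.86 for Ext1, 0.60 for Extl3, 0.81 for Hs2st1, 1.48 for Hs6st1 and 1.44 for Glce. Association in Trim71KO over untagged cells was also larger in experiment 1 for Hs6st1 (0.90, SE 0.28, adjusted p = 0.0388) and Glce (0.79, SE 0.25, adjusted p = 0.0461), where 7.33% of 18620 genes were called by edgeR.

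The input change in Trim71KO cells differed between the experiments for Ndst2 (0.97, SE 0.21, adjusted p = 0.000752), which was higher in experiment 1 and lower in experiment 2. For Glce the difference was 0.50 (SE 0.18, adjusted p = 0.0356). Of all genes 22.8% were called by edgeR in this comparison.

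The change of association in Trim71KO cells minus that in Ago2KO cells was called by edgeR in experiment 2 for Hs2st1 and Glce, beside 11.8% of all genes. For Glce it was 1.33 (SE 0.15, adjusted p = 7.36e-07), called with every library left out in turn. For Hs2st1 it was 0.40 (SE 0.11, adjusted p = 0.0215), and 8 of 12 single libraries ended that call when left out.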

How the results depend on the processing

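Over 8 enzymes and 12 comparisons, 76 of 96 values kept their side of the threshold under every setting and with each library left out, and 0 changed direction while called. The 96 include the values of Ndst1, which describe it and carry no test. With only the groups compared, 1 enzyme in place of 0 was called in Ago2KO against tagged input. Leaving out single libraries, the enzymes past the threshold, Ndst1 included, ranged from 1 to 3 for the Trim71-dependent change of experiment 1, from 2 to 4 for the Ago2-dependent change and from 2 to 4 for Trim71KO input of experiment 1. Ndst1 is in these counts as a description only. The libraries of both Trim71KO comparisons chose it, so its side of the threshold there was fixed by the choice and shows no robustness. The 1 at the low end of the Trim71-dependent range is Ndst1 itself. The 4 in the Ago2-dependent range, without Ago2KO IP replicate 1, also includes it.

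Genes called for the Trim71-dependent change of experiment 2 numbered 295, and 470 with a replicate block within fraction, 522 with a block of IP and input of a culture, 548 by DESeq2, 489 with library size alone, 136 with only the groups compared, and 98 to 562 with 1 library left out. With library size alone Ext1 was not called in tag-specific association of experiment 2 (adjusted p = 0.12). With the replicate block within fraction, Extl3 was also called in Trim71KO over untagged cells of experiment 2 (adjusted p = 0.047) and in Trim71KO against Ago2KO cells (0.048). With the block of culture, Ext2 was also called in tag-specific association of experiment 2 (0.026) and in Ago2KO over untagged cells (0.037). Where experiment 1 groups and the Ago2KO groups share only replicate numbers, a block carries no known pairing.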
